A study of Mus musculus with 9 samples.

Results

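The DNAJ co-chaperones were examined as a gene family in MC38 cells, a mouse colon carcinoma line, through 41 genes whose symbol begins with Dnaja, Dnajb or Dnajc followed by a number, of 16509 genes in the table, with Dnajb9 left out. Class A had 4 members, class B had 10 and class C had 27. The 3 groups of 3 libraries each were compared: Ctrl cells, cells given Cu-Cys and cells given Cadict. Ctrl cells carry the label DMSO, whereas the study names PBS as its control for this experiment. Cu-Cys is the assembly of CuCl2 with cystine, and Cadict is that assembly carrying glucose oxidase (GOx) and the conjugate DSPE-PEG-GE11. In the conjugate GE11 is a peptide that targets the EGF receptor, DSPE a hydrophobic anchor and PEG the linker between them. The comparison of Cadict with Cu-Cys therefore adds GOx and the whole conjugate, and their parts cannot be told apart. Neither the labels nor the study's sequencing methods give the dose or time for these libraries. All groups came from the same unmodified line, and the study describes its cell experiments in general as independent repeats, but no label ties a library to a culture of its own, so p-values may measure only the spread between these samples, which may be technical.

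J-domain proteins bring client proteins to HSP70 and, through a conserved His-Pro-Asp motif in the J domain, stimulate HSP70 to hydrolyse ATP and hold the client. Class A members resemble bacterial DnaJ, with a glycine and phenylalanine rich stretch and a zinc finger region. Class B members have the rich stretch without the zinc finger, and class C members share only the J domain and serve in many compartments. Several cytosolic members belong to the heat shock response, in which the factor HSF1 binds repeated GAA units in promoters, while members in the endoplasmic reticulum (ER) work with its HSP70, Hspa5.

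The libraries held between 17905769 and 18293060 expected counts, and a count of 0 allowed up to 3 counts, or 0.130 to 0.261 CPM (counts scaled to a common total) after scaling by the TMM method, which covers counting error alone. The top 100 genes by count held 17.2% to 17.4% of counts in Ctrl, 17.9% to 18.2% in Cu-Cys and 29.8% to 31.1% in Cadict. With library totals in place of TMM, the median log2 fold change over all genes moved by -0.95 for Cadict and by -0.068 for Cu-Cys, each relative to Ctrl, so directions below are given on the TMM scale, and members whose direction turned with library totals are named under each comparison. Cadict replicate 2 stood apart from the other Cadict libraries, with a chi-square per gene of 14.7 and 23.1 against them, where replicates 1 and 3 gave 3.63 and sampling noise alone gives about 1. Of 8 epithelial markers, 6 were in the table and 2 reached 1 TPM (a transcript measure scaled for length and depth) in Ctrl, Cdh1 and Krt19, while Epcam was listed at 0 TPM in Ctrl and Vim averaged 2919 TPM there. The summed epithelial markers lay between 4.22 and 6.24 TPM in Ctrl and between 11.5 and 13.2 TPM in Cadict. The 8 mesenchymal markers summed to between 3367 and 3523 TPM in Ctrl and to between 1205 and 1291 TPM in Cadict. Of 8 haematopoietic markers, 6 were in the table, with sums of 7.70 to 8.76 TPM in Ctrl and 15.3 to 18.7 TPM in Cadict, mostly Cd68, while Ptprc averaged 0.0467 TPM in Ctrl. The 4 endothelial markers summed to at most 1.31 TPM in any library. The part of these marker shifts in the results was not tested.

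The share of all counts that fell on DNAJ members was 0.313% ± 0.00219 in Ctrl, 0.335% ± 0.00493 in Cu-Cys and 0.548% ± 0.00906 in Cadict (SD, n = 3), and the libraries of the 3 groups did not overlap. Class C held 55.6% ± 0.453 of the member counts in Ctrl, class A held 25.0% ± 0.332 and class B held 19.4% ± 0.222. In Cu-Cys the shares were 52.2% ± 0.0310 for class C, 28.3% ± 0.0619 for class A and 19.4% ± 0.0639 for class B. In Cadict class B became the leading class with 44.8% ± 0.657, followed by class A with 32.4% ± 0.607 and class C with 22.9% ± 0.128. Dnajb1, the main stress-inducible HSP40 of the cytosol, took 3.91% ± 0.0781 of member counts in Ctrl, 4.26% ± 0.127 in Cu-Cys and 27.9% ± 0.960 in Cadict. Dnaja1, an abundant cytosolic partner of HSP70, took 10.6%, 12.8% and 20.6% in the same order. Longer transcripts give more counts, and per length, as the authors' TPM, class C still led in Ctrl with 59.0% of member TPM and class B in Cadict with 42.9%.

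**Figure D1:**
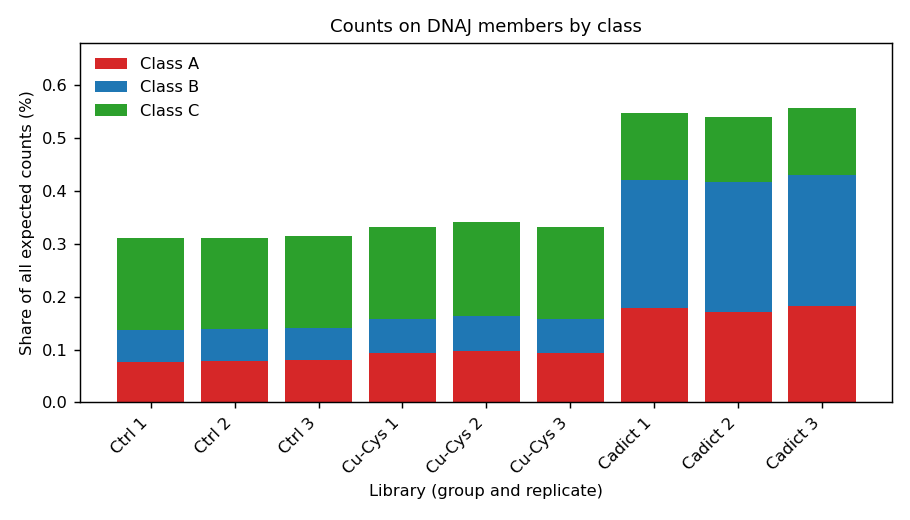
Stacked bars give, for each of the 9 libraries on the x axis, the share of all expected counts that fell on DNAJ members, in percent, divided into class A, class B and class C. The whole bar stands near 0.313% in Ctrl, 0.335% in Cu-Cys and 0.548% in Cadict, where the class B segment is the tallest.

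On the TPM scale the order of levels in Ctrl began with Dnajc8, a spliceosome-associated member, at 320.2 ± 6.18 TPM (SD, n = 3). Dnaja2 followed at 219 ± 2.48 TPM, then Dnaja1 at 183 ± 1.90 TPM and Dnajc7 at 181 ± 4.15 TPM, and the last pair did not differ beyond their spread, since their libraries overlapped. Below them stood Dnajb11 at 158 ± 1.02 TPM, Dnajc10 at 142 ± 4.63 TPM and Dnajb6 at 130.1 ± 1.92 TPM. Dnajb1 had 76.8 ± 1.00 TPM in Ctrl and was not among the 10 highest members. In Cu-Cys the 5 highest members kept this order, with Dnajc8 at 332 ± 2.84 TPM and Dnaja1 at 224 ± 2.13 TPM. In Cadict the order began with Dnajb1 at 753 ± 44.4 TPM, Dnaja1 at 488 ± 57.8 TPM and Dnajc8 at 321 ± 5.17 TPM. Dnajb6 at 267 ± 29.3 TPM and Dnaja2 at 259.7 ± 23.0 TPM came next. Their ranges over the Cadict libraries overlapped, while within each of these libraries Dnajb6 was slightly higher.

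Cadict against Ctrl asked how the nanodrug altered the cells. Of the 41 members, 36 passed the filter on low counts and were tested. A call needed a 2-fold change and an adjusted p under 0.001 in the quasi-likelihood test of edgeR, with the adjustment of Benjamini and Hochberg taken over all 11949 genes tested. By this rule 21 members were called (58.3%, against 47.8% of all genes tested), of which 12 were higher (33.3%, against 20.7%) and 9 were lower (25%, against 27.1%). By class, 3 of 4 class A members rose and none fell, 4 of 8 class B members rose and 1 fell, and 5 of 24 class C members rose and 8 fell. The median log2 fold change was 2.13 in class A, 1.61 in class B and 0.058 in class C, where all genes tested had a median of -0.13. With library totals these medians were 1.18, 0.66, -0.89 and -1.08, so the distance of each class from all genes changed little while the sign for class C turned. The class C median also became -0.037 without Cadict replicate 2, which left 11 members called higher and 9 lower. With library totals, 7 members were called higher and 15 lower, against 6.93% and 51.5% of all genes, and Dnaja2, Dnajc2, Dnajc7, Dnajc8 and Dnajc15 lost their call as higher. Dnajb5, Dnajb12, Dnajc3, Dnajc4, Dnajc9 and Dnajc10, not called with TMM, were called lower there. Their values with library totals were -1.41, -1.42, -1.32, -1.11, -1.61 and -1.49. In these bulk libraries, fewer cells of a type and less RNA per cell cannot be told apart.

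The members listed as cytosolic and nuclear held most of the rises. Of the 9 on this list, all tested, 8 were called higher (88.9%, against 20.7% of all genes). The median log2 fold change of the 9 was 2.32, and Dnajb5 did not follow. The lists were drawn with earlier results of these data known, and the share depends on how they were cut. Nuclear and splicing members, with Dnajc9, and ribosome and translation members, with Dnajc21 and Dnajc24, are counted apart below. Of 3 on each of these lists, 2 and 1 were called higher, and none and 1 lower. Dnajb1, at chr8:83608193-83612653 on the plus strand (GENCODE, GRCm38), had 93.6, 97.2 and 99.4 TMM CPM in the Ctrl libraries, 116, 118 and 121 in Cu-Cys and 2296, 2444 and 2274 in Cadict. Every Cadict library stood far above the other 6. The log2 fold change of Cadict against Ctrl was 4.60 ± 0.056 (standard error), or 24.2-fold, with an adjusted p of 1.1e-17 in edgeR, and 3.64 with library totals. Of its 50-base stretches, 0.412% also occur in transcripts of other genes, so few reads could have been split.

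Dnaja4, a class A member of the cytosol at chr9:54698873-54716315 on the plus strand, was the lowest class A member in Ctrl, at 3.08 ± 0.191 TPM, and had the largest rise of the family. Its CPM was 3.59, 4.16 and 3.84 in Ctrl, 5.26, 5.62 and 5.34 in Cu-Cys and 125, 116 and 118 in Cadict, with no overlap between groups. The log2 fold change of Cadict against Ctrl was 4.95 ± 0.074, or 30.9-fold (edgeR adjusted p 6.2e-17). Exons of Wdr61 on the opposite strand cover 44.1% of the exonic bases of Dnaja4, and no source states that counting used strand, so reads of the overlap cannot be told apart. Wdr61 itself had 39.0 to 41.2 CPM in Ctrl and 80.4 to 87.4 CPM in Cadict, a log2 fold change of 1.07.

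Dnaja1, at chr4:40722150-40737149 on the plus strand, had 259, 261 and 267 CPM in Ctrl, 356, 362 and 347 in Cu-Cys and 1725, 1682 and 1763 in Cadict. The groups stepped up without overlap, and the log2 fold change of Cadict against Ctrl was 2.72 ± 0.048, or 6.58-fold (edgeR adjusted p 2.8e-16). Of its 50-base stretches, 20.6% are shared with other genes, among them the pseudogenes Gm15542 and Gm7816 and the neighbour Smu1, so its count is uncertain to that extent. Dnaja2, the other abundant class A member, had 259, 269.9 and 274 CPM in Ctrl, 330.1, 333 and 327 in Cu-Cys and 780.4, 789 and 778 in Cadict, a log2 fold change of 1.55 ± 0.046 for Cadict against Ctrl and of 0.60 with library totals. Class A was thus ordered Dnaja4, Dnaja1, Dnaja2 and Dnaja3 by size of change.

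Dnajb4, a heat-inducible class B member at chr3:152178511-152210302 on the minus strand, had 56.0, 58.4 and 57.2 CPM in Ctrl, 54.4, 56.4 and 54.4 in Cu-Cys and 464, 435 and 473 in Cadict. Cadict moved it past the test, by 3.00 ± 0.052 on the log2 scale against Ctrl, or 7.99-fold, whereas Cu-Cys against Ctrl gave -0.055 ± 0.052 (edgeR adjusted p 0.416). Dnajb2, a member that binds ubiquitylated clients, had 27.2, 29.0 and 25.2 CPM in Ctrl and 125, 141 and 140.2 in Cadict, a log2 fold change of 2.32 ± 0.067. Dnajb6, which holds back the aggregation of polyglutamine proteins, had 110.0, 111 and 112 CPM in Ctrl and 544, 549 and 567 in Cadict, a log2 fold change of 2.31 ± 0.05, and shares 21.0% of its 50-base stretches with other genes, Gm2541 first among them. The Cadict libraries of Dnajb2 and Dnajb6 lay above all others, and with library totals both remained positive, at 1.37 and 1.36. Dnajc7, a cytosolic class C member that binds both HSP70 and HSP90, had 123, 121 and 124 CPM in Ctrl and 291, 284 and 272 in Cadict, a log2 fold change of 1.20 ± 0.049 that became 0.25 with library totals and -0.11 on the log2(TPM + 1) scale. Dnajb5, the exception, had 5.58, 5.41 and 4.84 CPM in Ctrl and 4.33, 2.96 and 4.2 in Cadict, a log2 fold change of -0.46 ± 0.16 with an adjusted p of 0.0125 in edgeR, under the fold threshold.

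**Figure D2:**
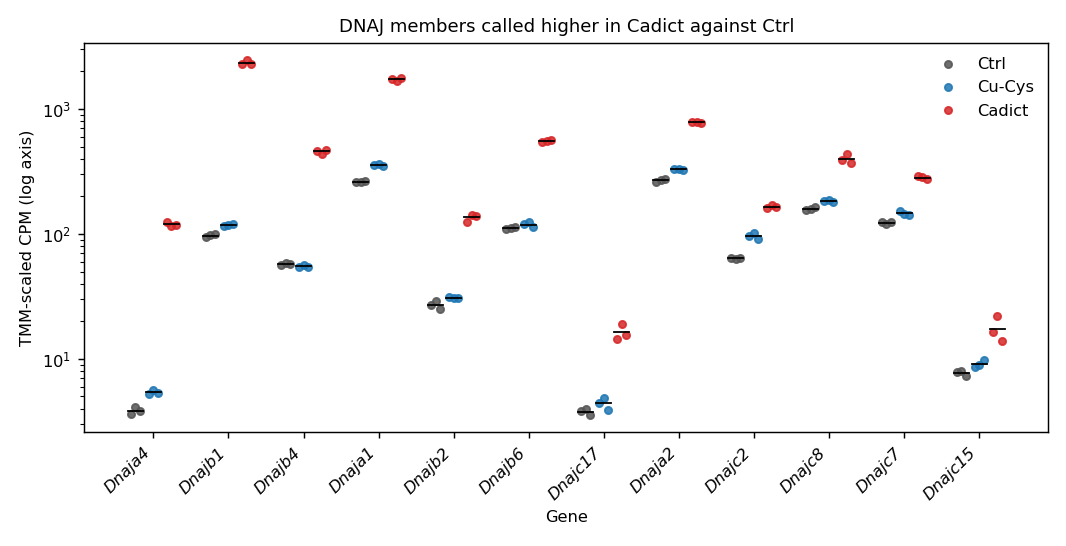
Points give the TMM-scaled CPM of each library, on a log axis, for the 12 members called higher in Cadict against Ctrl, with Ctrl, Cu-Cys and Cadict in separate colours and a bar at the mean of 3 libraries. In each of the 12 genes the Cadict points lie above the Ctrl and Cu-Cys points, furthest for Dnaja4 and Dnajb1, while on the TPM scale Dnajc7 and Dnajc15 turn lower.

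The promoters of these members were read for heat shock elements, since several cytosolic members are known heat shock genes. RefSeq windows of GRCm38.p6, from 250 bases before to 50 bases after each start, matched 34 of the 41 members. A pair of inverted units, GAANNTTC or TTCNNGAA on either strand, was present in 7 of the 34 members (20.6%) and in 14.7% of the 12889 table genes with a window. Of the 12 members called higher, 11 had a window and 4 of these held the pair, Dnaja1, Dnaja4, Dnajb4 and Dnajb6. Of the 9 called lower, 6 had a window and 1 held it, Dnajc27. Dnajc10, which was not called, and Dnajc5g, which was not tested, made up the 7. In Dnajb6 both pairs overlap and join into the run of 3 units GAANNTTCNNGAA, searched with TTCNNGAANNTTC, which was found in 0.566% of table genes. The stretches of the 4 higher members are shown 5′ to 3′ on the gene's strand, with the element in capitals, followed by the stretch of the lower member Dnajc27 for comparison:
Dnaja4, chr9:54699458-54699487, plus strand: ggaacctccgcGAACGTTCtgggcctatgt
Dnaja4, chr9:54699496-54699525, plus strand: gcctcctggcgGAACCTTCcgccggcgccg
Dnaja1, chr4:40722333-40722362, plus strand: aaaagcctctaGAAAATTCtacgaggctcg
Dnajb4, chr3:152193841-152193870, minus strand: ttcgttcgctgTTCTAGAAagtacagagac
Dnajb6, chr5:29735843-29735872, plus strand: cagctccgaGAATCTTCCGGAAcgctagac
Dnajc27, chr12:4082350-4082379, plus strand: cacccatcggtGAAGATTCcaggaaaaaaa

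The element of Dnaja4 began 90 and 52 bases before a RefSeq start, that of Dnaja1 124 bases before and that of Dnajb4 14 bases before. Dnaja1 had 3 windows and Dnaja4 and Dnajb4 had 2 each, and each of these elements is placed against a single start. The run in Dnajb6 began 127 or 46 bases before its 2 starts, and the element of Dnajc27 213 bases before. In GENCODE the Dnajc27 element lies in no gene, those of Dnajb4 and the first of Dnaja4 lie inside the gene's span but in no exon, and those of Dnaja1, Dnajb6 and the second of Dnaja4 lie in an annotated exon of the gene. Exons of Gm6297 and Gm5129 on the other strand also cover the elements of Dnaja1 and Dnajb6. The windows of Dnajb1 did not contain these letters, although Dnajb1 rose 24.2-fold. A match is a description of the letters and not a bound site.

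No listed ER member was called higher. Of 8 ER members listed and tested, 3 were called lower (37.5%, against 27.1% of all genes, where 20.7% were higher), with a median log2 fold change of -0.50 beside -0.13 for all genes. Dnajc14, an ER membrane member described further on, was not on the list, and with it 4 of 9 were called lower and the median was -0.54. With the adjusted p alone, limited to 0.05, 34 members and 87.7% of all genes passed. Over the family 20 members were higher (against 40.6%) and 14 lower (against 47.1%), and of the ER members 2 rose and 6 fell. With library totals all 8 were negative, with a median of -1.46, but so were 78.0% of all genes, with a median of -1.08. Dnajb14, an ER membrane member at chr3:137867675-137916557 on the plus strand, had 23.9, 22.3 and 23.1 CPM in Ctrl, 20.3, 23.9 and 22.5 in Cu-Cys and 4.76, 6.45 and 5.46 in Cadict, a log2 fold change of -2.06 ± 0.11, or 4.16-fold lower (edgeR adjusted p 5.1e-11). It was the sole class B member that was called lower. Dnajb12, its close relative in the ER membrane, had 35.6, 37.4 and 35.4 CPM in Ctrl and 27.3, 24.3 and 26.8 in Cadict, a log2 fold change of -0.47 ± 0.065 that did not reach the fold threshold. Dnajc16 had 23.8, 22.5 and 22.6 CPM in Ctrl and 6.97, 6.62 and 6.72 in Cadict, a log2 fold change of -1.76 ± 0.087. Dnajc18 had 17.4, 15.7 and 14.8 CPM in Ctrl and 6.37, 8.02 and 8.14 in Cadict, a log2 fold change of -1.09 ± 0.12 that became -0.98 and lost its call without Cadict replicate 1.

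Among the listed ER members that work in the lumen, Dnajb11, Dnajc3 and Dnajc10, no change reached the fold threshold on the TMM scale. Those of Dnajb11 and Dnajc10 were larger in size than that of the membrane member Dnajb12 on this scale. With library totals Dnajc3 and Dnajc10 were called lower, at -1.32 and -1.49, as were 51.5% of all genes. Dnajb11, an abundant Hspa5 partner, had 121, 125 and 124 CPM in Ctrl, 149, 151 and 150.1 in Cu-Cys and 229.9, 236 and 229 in Cadict, a log2 fold change of 0.91 ± 0.044 that turned to -0.046 with library totals. Dnajc3, known as an inhibitor of eIF2alpha kinases, had 106, 105 and 101 CPM in Ctrl and 80.8, 74.7 and 86.7 in Cadict, a log2 fold change of -0.37 ± 0.058. Its promoter was the only member window with the ER stress element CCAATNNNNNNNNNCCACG, which 0.155% of table genes hold, at chr14:118937821-118937850 on the plus strand, outside any GENCODE gene, with the element in capitals:
Dnajc3: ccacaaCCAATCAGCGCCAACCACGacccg

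Dnajc10, a disulfide reductase of the ER, had 249, 241 and 257 CPM in Ctrl, 196, 222 and 209 in Cu-Cys and 172, 165 and 175 in Cadict. It was lower in both treated groups, with log2 fold changes of -0.54 ± 0.055 for Cadict and -0.25 ± 0.054 for Cu-Cys against Ctrl (edgeR adjusted p 1.4e-07 and 0.00166). Dnajc1, an ER membrane member near ribosomes, had 18.1 to 19.6 CPM in Ctrl and 22.0 to 26.7 in Cadict, a log2 fold change of 0.39 ± 0.079 that turned to -0.57 with library totals. The letters TGATGNAA, an element of the amino acid response, were in 0 of 34 member windows and in 3.18% of table genes.

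**Figure D3:**
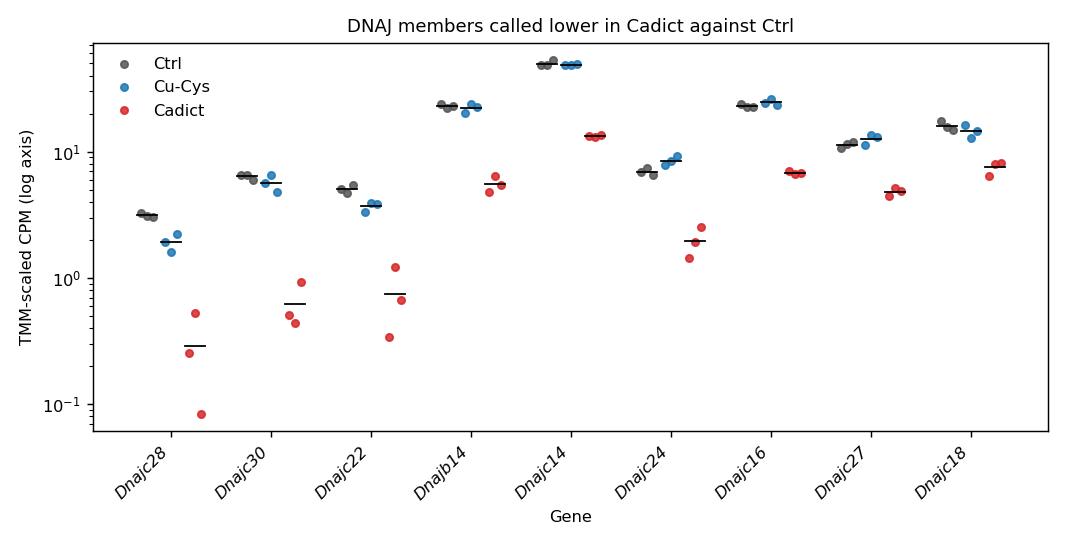
Points give the TMM-scaled CPM of each library, on a log axis, for the 9 members called lower in Cadict against Ctrl, with a bar at the mean of 3 libraries. Cadict points lie below the Ctrl points in each gene, and Dnajc28, Dnajc30 and Dnajc22 reach the lowest values, where few counts stand behind them.

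Of the 5 mitochondrial members listed and tested, 1 was called higher, Dnajc15 (20%, against 20.7% of all genes). Dnajc30 was called lower (20%, against 27.1%), so both shares were near those of all genes. Dnajc15, which takes part in protein import at the inner membrane, had 7.79, 8.01 and 7.24 CPM in Ctrl and 16.4, 21.9 and 13.9 in Cadict, a log2 fold change of 1.18 ± 0.13 that became 0.98 and lost its call without Cadict replicate 2, the highest of its libraries, and -0.19 on the log2(TPM + 1) scale. Dnajc19, a relative in the same import motor, had 9.21, 10.6 and 9.68 CPM in Ctrl and 16.7, 23.5 and 14.4 in Cadict, a log2 fold change of 0.89 ± 0.14 that turned to -0.065 with library totals. Again Cadict replicate 2 was the highest library, and without replicate 3, the lowest, the value was 1.03 and was called. Dnajc11, a member tied to inner membrane cristae, had 87.3, 86.5 and 82.7 CPM in Ctrl, 117, 105 and 107 in Cu-Cys and 155, 173 and 167 in Cadict, a log2 fold change of 0.95 ± 0.058 that came to -0.0059 with library totals. Dnaja3, the class A member of the mitochondrial matrix, had 81.1, 86.1 and 85.8 CPM in Ctrl, 88.7, 99.8 and 96.5 in Cu-Cys and 88.6, 85.8 and 93.2 in Cadict. It was the class A member that did not pass the test in Cadict, at 0.081 ± 0.058 (edgeR adjusted p 0.198), and its direction turned to -0.87 with library totals. Dnajc30, linked to respiratory complexes, was named after its values were seen, since it fell under the abundance limit of the naming rule. Its counts were 152, 151 and 137 in Ctrl and 6, 5 and 11 in Cadict, a log2 fold change of -3.33 ± 0.24, and exons of Bud23 on the other strand cover 26.2% of its exonic bases.

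Of 3 nuclear and splicing members, 2 were called higher (66.7%, against 20.7% of all genes) and none lower (against 27.1%). Dnajc17, a splicing factor, had 3.81, 3.98 and 3.58 CPM in Ctrl, 4.43, 4.89 and 3.88 in Cu-Cys and 14.4, 18.9 and 15.4 in Cadict, the largest rise of class C, at 2.1 ± 0.13 (edgeR adjusted p 2e-10), and it was the class C rise that remained called with library totals, at 1.15. It shares 18.7% of its 50-base stretches with Gm6257 and the antisense neighbour Zfyve19, which had 7.46 to 9.05 CPM in Ctrl and 5.61 to 6.80 in Cadict. Dnajc8 had 156, 158 and 164 CPM in Ctrl, 182, 186 and 180.4 in Cu-Cys and 393, 436 and 368 in Cadict, a log2 fold change of 1.32 ± 0.059, while its TPM was 320.2 ± 6.18 in Ctrl and 321 ± 5.17 in Cadict. The same gene thus rose on the TMM scale and differed by less than its spread on the TPM scale. Dnajc9, a histone chaperone, had 64.8 to 73.3 CPM in Ctrl and 41.3 to 44.5 in Cadict, a log2 fold change of -0.66 ± 0.066.

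The 3 ribosome and translation members differed in direction. Dnajc2, which sits on the ribosome and receives nascent chains, had 63.6, 62.7 and 64.3 CPM in Ctrl, 95.5, 101 and 90.3 in Cu-Cys and 161, 171 and 165 in Cadict, with a log2 fold change of 1.38 ± 0.054 for Cadict against Ctrl. These steps did not overlap on the TMM scale, but on the TPM scale Dnajc2 averaged 79.3 ± 1.57 TPM in Ctrl, 108 ± 4.88 in Cu-Cys and 83.5 ± 6.41 in Cadict, with Cu-Cys highest. The call for Cadict against Ctrl was lost with library totals, at 0.43, and on the log2(TPM + 1) scale, at 0.07 (limma adjusted p 0.338). Dnajc21, a factor of large ribosomal subunit assembly, had 41.1, 38.8 and 41.4 CPM in Ctrl and 52.2, 51.4 and 53.3 in Cadict, a log2 fold change of 0.37 ± 0.055 that turned to -0.58 with library totals. Dnajc24, an enzyme partner in making diphthamide on elongation factor 2, had 6.88, 7.45 and 6.54 CPM in Ctrl, 7.80, 8.41 and 9.26 in Cu-Cys and 1.44, 1.92 and 2.52 in Cadict, a log2 fold change of -1.82 ± 0.17 (edgeR adjusted p 6.1e-08). Its Cu-Cys libraries lay above all Ctrl libraries and its Cadict libraries below them.

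The vesicle and endosome members, with 2 of 3 tested, changed by less than the threshold. Dnajc5, the cysteine string protein of secretory vesicles, had 107 to 110.0 CPM in Ctrl and 173 to 199 in Cadict, and Dnajc13, an endosomal trafficking member, had 182 to 198 and 205 to 253. Their log2 fold changes of 0.80 ± 0.056 and 0.29 ± 0.067 turned to -0.15 and -0.66 with library totals.

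Of the class C members on none of these lists, Dnajc14 is an ER membrane protein known for receptor export. It had the largest fall among class C members with a mean of at least 5 CPM over all 9 libraries, a limit that the falls themselves can move a gene under. Dnajc30 and Dnajc22 averaged 6.36 and 5.08 CPM in Ctrl and fell further. Dnajc14 had 48.1, 48.6 and 52.8 CPM in Ctrl, 48.9, 48.3 and 49.5 in Cu-Cys and 13.4, 13.2 and 13.4 in Cadict. Its log2 fold change of Cadict against Ctrl was -1.90 ± 0.069, or 3.74-fold lower (edgeR adjusted p 5.1e-13). Exons on the other strand, of Ormdl2 and Tmem198b, cover 19.1% of its exonic bases, and Ormdl2 had 21.9 to 23.6 CPM in Ctrl and 26.6 to 35.3 in Cadict. Dnajc27, a Rab-like GTPase with a J domain, had 10.8, 11.5 and 11.9 CPM in Ctrl and 4.42, 5.14 and 4.87 in Cadict, a log2 fold change of -1.24 ± 0.12. Dnajc25 had 15 to 16.3 CPM in Ctrl and 17.5 to 19.8 in Cadict, a log2 fold change of 0.28 ± 0.076 that turned to -0.68 with library totals.

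The largest falls of the family had few counts behind them, and their genes were named after their values were seen. Dnajc28 had counts of 76, 72 and 70 in Ctrl, 42, 35 and 49 in Cu-Cys and 3, 6 and 1 in Cadict, with a fitted log2 fold change of -3.44 ± 0.34 for Cadict against Ctrl. Dnajc22 had counts of 118, 109 and 124 in Ctrl, 72, 85 and 84 in Cu-Cys and 4, 14 and 8 in Cadict, with a fitted value of -2.77 ± 0.25. In both genes the Cu-Cys libraries lay between the Ctrl and Cadict libraries. Dnajc4 had 3.57, 4.44 and 2.27 CPM in Cadict against 3.72, 3.94 and 3.79 in Ctrl and did not pass the test, at -0.16 ± 0.19 (edgeR adjusted p 0.430), and the sign turned to 0.065 without Cadict replicate 3.

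**Figure D4:**
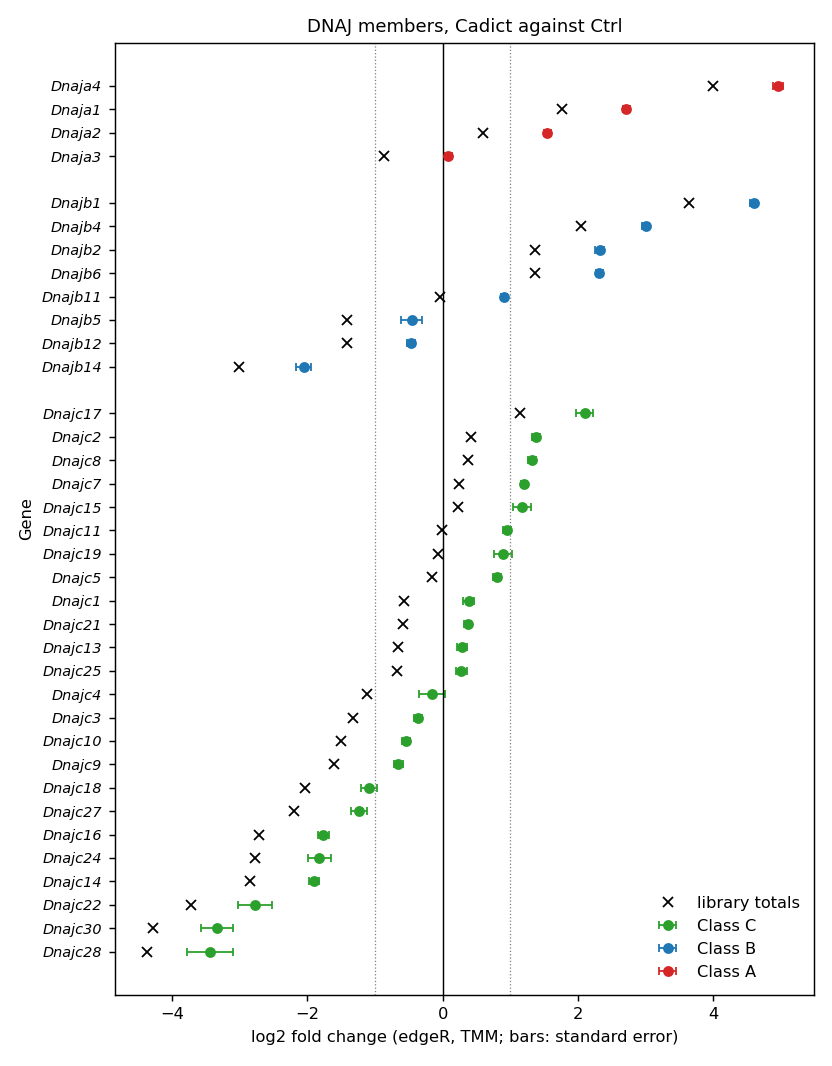
Circles give the log2 fold change of Cadict against Ctrl for the 36 tested members, by class and ordered by size, with bars of 1 standard error, from edgeR with TMM scaling, and crosses give the value with library totals. Dotted lines mark a 2-fold change, and 9 members, from Dnajb11 and Dnajc11 to Dnaja3, have a circle right of 0 and a cross left of it.

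The other 5 members were not tested. Dnajb7 had counts of 0, 0 and 0 in Ctrl, 2, 3 and 2 in Cu-Cys and 6, 2 and 2 in Cadict. Dnajc12 had counts of 7, 6 and 7 in Ctrl, 6, 5 and 2 in Cu-Cys and 0, 1 and 0 in Cadict. Dnajb13, Dnajc5g and Dnajc6 had at most 1 count in any library. Of the 6 testis members listed, Dnajb7, Dnajb13 and Dnajc5g were in the table and none passed the filter, so levels at this depth were at or near the floor.

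Cu-Cys against Ctrl asked what the copper and cystine assembly did without the other components. No member was called at the 2-fold threshold by edgeR, against 1.64% of all genes tested (0.167% higher and 1.47% lower), and DESeq2 called none either. With the adjusted p alone, limited to 0.05, 17 members passed (47.2%, against 45% of all genes). Of these, 14 rose (38.9%, against 22.6% of all genes) and 3 fell (8.33%, against 22.4%), and 19 did not pass. At an unadjusted p under 0.05 the counts were also 14 and 3. Class A had 4 of 4 members higher, class B had 3 of 8 higher, and class C had 7 of 24 higher and 3 lower. The medians were 0.37, 0.10 and 0.074 on the log2 scale, where all genes had 0.0067. With library totals Dnajb5, Dnajc1, Dnajc5 and Dnajc13, none of which passed, turned from positive to negative, at -0.038, -0.06, -0.019 and -0.047. The changes were small in size, and the most any member rose was 0.59 ± 0.053, for Dnajc2 (edgeR adjusted p 9.2e-07).

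Among the class A members, the log2 fold change of Cu-Cys against Ctrl was 0.49 ± 0.10 for Dnaja4, 0.44 ± 0.046 for Dnaja1, 0.30 ± 0.045 for Dnaja2 and 0.17 ± 0.056 for Dnaja3 (edgeR adjusted p 0.00138, 3.6e-06, 8.2e-05 and 0.0215). All Cu-Cys libraries of these 4 genes lay above all Ctrl libraries. The share of all genes that separate in this way was not counted, and 45% of all genes passed an adjusted p of 0.05 here in edgeR. Of class B, Dnajb1 rose by 0.29 ± 0.051, Dnajb11 by 0.28 ± 0.044 and Dnajb2 by 0.19 ± 0.069. Of class C, Dnajc11 rose by 0.36 ± 0.057, Dnajc25 by 0.35 ± 0.069, Dnajc7 by 0.25 ± 0.049, Dnajc21 by 0.21 ± 0.052 and Dnajc8 by 0.20 ± 0.058. Dnajc2, Dnajc21 and Dnajc24, the 3 ribosome and translation members, all passed as higher (100%, against 22.6% of all genes). Dnajc24 rose by 0.29 ± 0.11 (edgeR adjusted p 0.0451), close to the threshold, and with the replicate number as a block its adjusted p was 0.0561. The members that fell were Dnajc28, at -0.71 ± 0.19, Dnajc22, at -0.46 ± 0.15, and Dnajc10. Some of these calls were lost when a library was left out, in most cases any of several libraries. Dnajb2 no longer passed without Ctrl replicate 1 or 3 or any Cu-Cys library, at 0.14 to 0.19, and Dnajc24 without any Ctrl library or Cu-Cys replicate 2 or 3, at 0.22 to 0.34. Dnajc22 no longer passed without Ctrl replicate 1 or 3 or Cu-Cys replicate 1, at -0.46 to -0.40, Dnaja3 without Ctrl replicate 1 or Cu-Cys replicate 2 or 3, at 0.14 to 0.16, and Dnajc8 without Ctrl replicate 1, at 0.18.

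**Figure D5:**
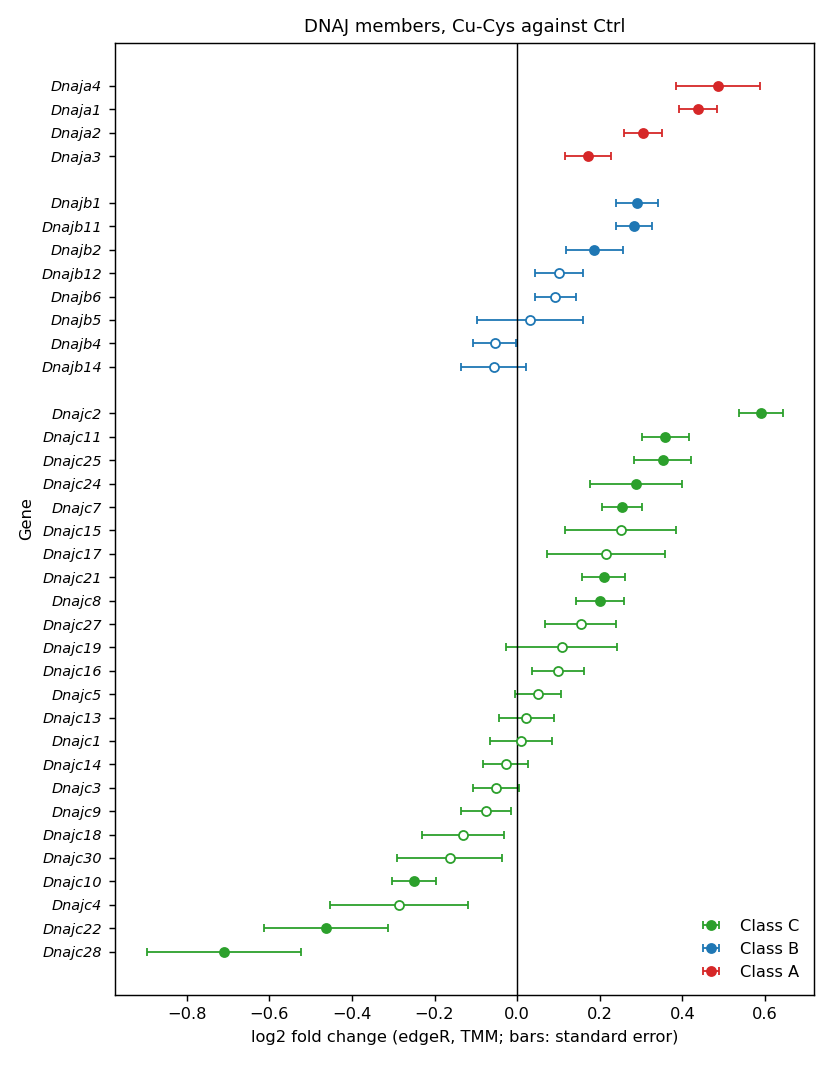
Circles give the log2 fold change of Cu-Cys against Ctrl for the 36 tested members, by class and ordered by size, with bars of 1 standard error, from edgeR with TMM scaling, and filled circles mark an adjusted p within 0.05. All 4 class A circles are filled and right of 0, and Dnajc10, Dnajc22 and Dnajc28 are the filled circles left of 0.

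Cadict against Cu-Cys addressed what GOx and the DSPE-PEG-GE11 conjugate added together. By the 2-fold rule, 9 members were called higher (25%, against 18.6% of all genes) and 8 lower (22.2%, against 23.6%). Class A had 3 higher, class B 4 higher and 1 lower, and class C 2 higher and 7 lower, with medians of 1.76, 1.38 and 0.025. Dnaja4 rose by 4.47 ± 0.071, Dnajb1 by 4.31 ± 0.056, Dnajb4 by 3.05 ± 0.052 and Dnaja1 by 2.28 ± 0.047 on the log2 scale (edgeR adjusted p 1.3e-16, 2.7e-17, 2.6e-16 and 1.9e-15). Dnajc2, Dnajc7 and Dnajc15 were under the fold threshold, at 0.79, 0.95 and 0.93, and so was Dnajc18 at -0.96. With library totals 9 members turned from positive to negative, Dnajb11 at -0.26, Dnajc1 at -0.51, Dnajc2 at -0.10, Dnajc4 at -0.76, Dnajc5 at -0.13, Dnajc11 at -0.30, Dnajc13 at -0.62, Dnajc19 at -0.10 and Dnajc21 at -0.72. The class C median became -0.11 without Cadict replicate 2. The fall of Dnajc24 was -2.11 ± 0.17 here. With the adjusted p alone, limited to 0.05, 33 members passed (91.7%, against 85.9%), 19 higher (52.8%, against 40.3%) and 14 lower (38.9%, against 45.6%). This comparison shares the Cadict libraries with that against Ctrl, so the 2 are given side by side and not as separate evidence.

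The partners of the DNAJ members were listed beside them. Of 15 HSP70 proteins tested, 7 were called higher (46.7%, against 20.7% of all genes) and 3 lower (20%, against 27.1%) in Cadict against Ctrl. Hspa1b, a stress-inducible HSP70, had 18.7, 20.9 and 19.1 CPM in Ctrl, 28.1, 30.5 and 38.8 in Cu-Cys and 27644, 22421 and 27317 in Cadict, a log2 fold change of 10.37 ± 0.14. Hspa1a, its near-identical neighbour, had counts of 1, 0 and 1 in Ctrl and 1166 to 1455 CPM in Cadict, and since the authors' counting could split reads between the pair, neither value stands alone. Hsph1, an HSP110 that releases nucleotide from HSP70, rose by 4.76 ± 0.055, Hspa8, the constitutive cytosolic HSP70, by 2.27 ± 0.048 and Hspa9, the mitochondrial HSP70, by 2.67 ± 0.047. Hspa5 of the ER had 1059 to 1134 CPM in Ctrl and 1872 to 2009 in Cadict, at 0.82 ± 0.05, and was not called. The 3 lower were Hspa12b at -3.92 ± 0.15, Hspa12a at -1.94 ± 0.13 and Hspa2 at -1.31 ± 0.13. With library totals Hspa5 turned to -0.13, while Hsph1, Hspa8 and Hspa9 were at 3.81, 1.31 and 1.72. On that scale 8 of the 15 HSP70 proteins were negative (53.3%, against 78.0% of all genes).

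Of 12 nucleotide exchange factors and regulators of HSP70, 6 were called higher (50%, against 20.7%) and 2 lower (16.7%, against 27.1%) in Cadict against Ctrl. Bag3, a factor that links HSP70 to autophagy, rose by 4.18 ± 0.059, Grpel1, the mitochondrial exchange factor, by 2.26 ± 0.081 and St13, which binds HSP70 in its ADP state, by 2.15 ± 0.052. The 2 lower were Bag5 at -2.0 ± 0.084 and Bag4 at -1.28 ± 0.071. With library totals Bag3, Grpel1 and St13 were at 3.22, 1.31 and 1.20, and 6 of the 12 were negative (50%, against 78.0% of all genes). Of the J-domain proteins with other names, Sec63, Gak and Hscb were not called, at 0.58, 0.50 and 0.26. These turned to -0.37, -0.45 and -0.69 with library totals. In Cu-Cys against Ctrl no partner was called by edgeR at the 2-fold rule, and with the adjusted p alone 8 HSP70 proteins rose (53.3%, against 22.6% of all genes) and 3 fell (20%, against 22.4%), and 8 exchange factors and regulators rose (66.7%) and none fell.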

How the data were processed

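RNA of 9 MC38 libraries was measured, 3 per group. The authors deposited one table with the expected count (estimated reads per gene, unnormalized), TPM, FPKM and a signal value (counts divided by a size factor) of every gene per library. Per the labels, the submitters' processing notes list HISAT2 2.1.0, Bowtie2 2.3.4.3 and RSEM 1.3.1 and the builds GRCh38.p13 and GRCm39, with no role given. Labels name a column kit and DNA nanoballs, whereas the methods name TRIzol and Novaseq. Counting strand is not given in the sources used here. Columns marked CC were read as Cu-Cys and those marked CCGE as Cadict, the latter inferred from its components. Deposited group averages and FPKM and signal values entered no test.

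Counts were rounded and fitted in R 4.3.3 with edgeR 4.0.16 (filterByExpr, TMM, one quasi-likelihood fit of 3 groups), with Benjamini-Hochberg adjustment over 11949 genes. Calls used the study's threshold, a 2-fold change with an adjusted p within 0.001. Alternatives used DESeq2 1.42.0, limma 3.58.1 on log2(TPM + 1) and log2(TPM + 0.1), library totals, other filters, a replicate block and each library left out. The test was checked on counts simulated from Ctrl means, with 200 genes changed by 2 on the log2 scale, as many up as down. Of 197 changed genes tested, 190 were recovered, and 2 unchanged genes were called. With so few and balanced changes, the check could not address the scaling of the Cadict libraries.

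The naming rule took every tested class A member; the 5 largest rises and falls of classes B and C among called members of at least 5 CPM; the 3 highest members per class in Ctrl; members that turned with library totals; and the 3 largest rises and falls among called partners. Other members were described after their values were seen. Members, lists and rule were chosen with earlier results of these data known. Coordinates are GRCm38 (GENCODE M21, RefSeq GRCm38.p6), a build other than those the notes list, and serve position and sequence only. Protein sequences were not analysed here. The value of a further J-domain protein on the list of partners is not reported here.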

Additional observations from a re-analysis of the deposited data

How the results depend on the processing

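The cause of the shifts with scaling was not tested. In Cadict against Ctrl, library totals gave 7 members higher and 15 lower, against 6.93% and 51.5% of all genes. Medians for classes A, B and C were 1.18, 0.66 and -0.89, and 9 members turned negative, at -0.046 for Dnajb11, -0.0059 for Dnajc11, -0.065 for Dnajc19, -0.15 for Dnajc5, -0.57 for Dnajc1, -0.58 for Dnajc21, -0.66 for Dnajc13, -0.68 for Dnajc25 and -0.87 for Dnaja3. The log2(TPM + 1) scale gave 6 higher and 16 lower, medians of 0.82, 0.32 and -1.11, and turned 11 members, at -0.39 for Dnajb11, -0.11 for Dnajc7, -0.19 for Dnajc15, -0.35 for Dnajc11, -0.44 for Dnajc19, -0.49 for Dnajc5, -0.76 for Dnajc1, -0.90 for Dnajc21, -0.91 for Dnajc13, -0.78 for Dnajc25 and -1.20 for Dnaja3. With log2(TPM + 0.1) there were again 6 and 16, with medians of 0.83, 0.32 and -1.20 and turned values of -0.39 for Dnajb11, -0.12 for Dnajc7, -0.20 for Dnajc15, -0.36 for Dnajc11, -0.45 for Dnajc19, -0.50 for Dnajc5, -0.89 for Dnajc1, -0.93 for Dnajc21, -0.92 for Dnajc13, -0.84 for Dnajc25 and -1.22 for Dnaja3. DESeq2 size factors gave medians of 2.25 and 1.73 for classes A and B, no filter gave 2.05, 1.53 and -0.022 for classes A, B and C, and at least 10 counts in every library gave 2.07 for class A and 0.22 for class C. The looser rule, an adjusted p within 0.05 with no fold limit, moved the count of members called from 21 to 34, 20 higher and 14 lower, and that of genes from 5707 to 10484. DESeq2's Wald test also called Dnajb11, Dnajc11 and Dnajc19 higher and lost Dnajc18. Leaving out 1 library kept between 20 and 22 members called, and Dnajc4 ranged from -0.39 to 0.065.

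In Cu-Cys against Ctrl, no alternative called a member at the 2-fold rule. Medians for classes A, B and C were 0.30, 0.029 and 0.0056 with library totals, 0.21, -0.036 and -0.065 with log2(TPM + 1) and 0.23, -0.037 and -0.066 with log2(TPM + 0.1). Genes called were 119 with at least 10 counts and 117 with log2(TPM + 1), and with the adjusted p alone, limited to 0.05, 17 members passed, 14 higher and 3 lower, of 5381 genes. Under that rule, 5 members no longer passed with library totals, 9 with log2(TPM + 1) and 12 with log2(TPM + 0.1).

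In Cadict against Cu-Cys, 14 members were called lower with library totals, against 47.7% of all genes. Members called lower were 16 with either TPM scale and 5 with at least 10 counts, a filter that left 33 members to test. No share of all genes is given beside the TPM and filter counts, here or against Ctrl, so they are not read as a family result. Class A, B and C medians were 0.88, 0.49 and -0.86 with library totals, 0.60, 0.27 and -1.0 with log2(TPM + 1) and 0.60, 0.27 and -1.05 with log2(TPM + 0.1), and class A and B medians were 1.85 and 1.47 with DESeq2 size factors and 1.67 and 1.29 with no filter, where class C was at -0.065. The class C median also turned to -2e-04 without Cu-Cys replicate 2 and to -0.11 without Cadict replicate 2. Dnajc8 turned to -0.048 on both TPM scales. With the adjusted p alone, limited to 0.05, 33 members passed, 19 higher and 14 lower, of 10263 genes.

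No label says that replicate numbers pair the samples. Same-numbered libraries had correlations of deviations from -0.19 to 0.154 over 8734 genes, and differently numbered libraries had -0.236 to 0.294. With 3 libraries per group these values cannot show whether the numbers mark pairs. With the replicate block, 21, 0 and 17 members were called in the 3 comparisons, as without it. In Cu-Cys against Ctrl, Dnajc24 alone among the 17 members that passed 0.05 no longer passed. Depth limits Dnajc28, Dnajc30, Dnajc22 and the members that were not tested.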
